A study of Homo sapiens with 4 samples.

Results

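Genes of matrix proteolysis were examined in Caki-1, a human cell line established from a renal cell carcinoma, after knockdown of the transcription factor TFE3. The set comprised 33 genes picked by name, with earlier results of these data known. It held 11 matrix metalloproteinases (MMPs), 5 MMP inhibitors, 7 ADAM and 5 ADAMTS proteases. The others were the plasminogen activators PLAU and PLAT, the receptor PLAUR, and the serpins SERPINE2 and SERPINB2. All 33 were found among the 61533 gene identifiers of the deposited count table. Polyadenylated RNA was sequenced from 2 libraries of cells transduced with lentiviral hairpin RNA against TFE3 (shTFE3, genotype label TFE3-KD) and 2 libraries of cells transduced with a lentiviral control sequence (shControl, genotype label WT). Both arms were split into new dishes 24 hours after infection, received puromycin at 1 µg/ml after a further 12 hours, and were harvested following 3 days under selection. The number of hairpins is not stated in the labels, nor whether libraries of an arm came from separate infections. The p-values therefore reflect only how far these libraries spread, which may be technical. No batch is named.

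Library totals were 17742519 and 17631154 counts in shTFE3 and 17316158 and 17270180 in shControl, and 3 counts, taken as the detection floor, equalled 0.167 and 0.169 CPM in shTFE3, against 0.176 and 0.176 CPM in shControl. CPM values are counts scaled to the library total and corrected with TMM factors. TFE3 mRNA was at 70.1 and 66.9 CPM in shTFE3, against 131 and 128 CPM in shControl, or 52.9% of the control level. Of the renal epithelial markers, PAX8 had 465 and 464 CPM in shTFE3, against 424 and 454 CPM in shControl, and did not pass the test described below. KRT8 had 329 and 349 CPM in shTFE3, against 369 and 364 CPM in shControl, and did not pass (log2 fold change -0.11, edgeR adjusted p 0.142). KRT18, whose annotated span overlaps that of KRT8 on the opposite strand, had 77.7 and 80.1 CPM in shTFE3, against 93.0 and 98.4 CPM in shControl. KRT18 fell by 0.28 on the log2 scale (edgeR adjusted p 0.00191, and 0.0806 and 0.0679 without shTFE3 replicates 1 and 2). The part of this keratin difference in the results on proteolysis genes was not tested. PAX2 had 0 counts in every library, and EPCAM had at most 21. Of 10 markers of leukocytes, endothelium and fibroblasts, 6 had at most 3 counts in every library. The others were PDGFRB (193 to 232 counts), COL1A1 (112 to 143), PECAM1 (48 to 68) and CD14. CD14 had 10 and 11 counts in shTFE3, against 2 and 2 in shControl. The summed counts of the 10 markers were 425 and 409 in shTFE3, against 389 and 393 in shControl.

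The extracellular matrix is cut by secreted and membrane-bound enzymes that are made as inactive precursors. MMPs and ADAMTS enzymes are zinc proteases that cleave collagens, laminins and proteoglycans, and TIMPs and RECK hold them in check. ADAMs are membrane proteases that mainly release the outer parts of other membrane proteins, such as growth factors and adhesion molecules. The activators PLAU (urokinase) and PLAT (tissue plasminogen activator) turn plasminogen into plasmin, which degrades fibrin and activates some MMPs, and serpins block the activators. In the kidney these systems are known for tubular matrix turnover, fibrosis and carcinoma invasion.

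With TFE3 knocked down, the listed genes of matrix proteolysis fell more often than they rose. They and the further lists below were chosen with earlier results of these data known. Their shares describe these lists and do not test the gene class. Of the 25 genes with enough counts to be tested, 13 fell (52.0%), against 12.9% of all 15950 genes tested. A further 2 rose (8.0%), against 10.3% of all genes tested, and 10 did not pass (quasi-likelihood test of edgeR, p adjusted by Benjamini-Hochberg over all genes tested, threshold 0.05). The tested members had more counts than most genes, with a median of 1004 per library, against 340 over all genes tested. Where the mean count was at least 100, 16.3% of all genes fell and 12.7% rose, and at that level 13 of 20 members fell and 2 rose. The other 8 members, MMP1, MMP3, MMP10, MMP13, MMP14, TIMP3, TIMP4 and SERPINB2, were removed by the filter on low counts. Each tested member had at least 15 counts in every library. The median log2 fold change was -0.31 over the 25 members and 0.0015 over all genes tested. In bulk RNA, fewer cells that express a gene and less of its RNA per cell cannot be told apart.

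The changes were mostly modest. MMP24 and MMP7 fell by more than 2-fold, 2 of 25 members, against 2.17% of all genes tested that changed at least 2-fold. PLAU and MMP15 also changed more than 1.5-fold, and the other 11 called members changed less. In the authors' deposited table, which lists 546 genes, these 4 are the members present, with log2 fold changes of -1.27 for MMP24, -1.12 for MMP7, -0.68 for PLAU and 0.81 for MMP15. MMP7, MMP24, ADAM19 and PLAU kept their calls in all 11 alternative settings. With no filter on low counts the other 11 called members lost theirs. With shTFE3 replicate 2 left out, fewer members passed in either direction, and no member passed as higher. Fewer of all genes passed in either direction too. In 19 of 25 tested members the libraries of the arms did not overlap in CPM, against 60.3% of all genes tested.

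**Figure D1:**
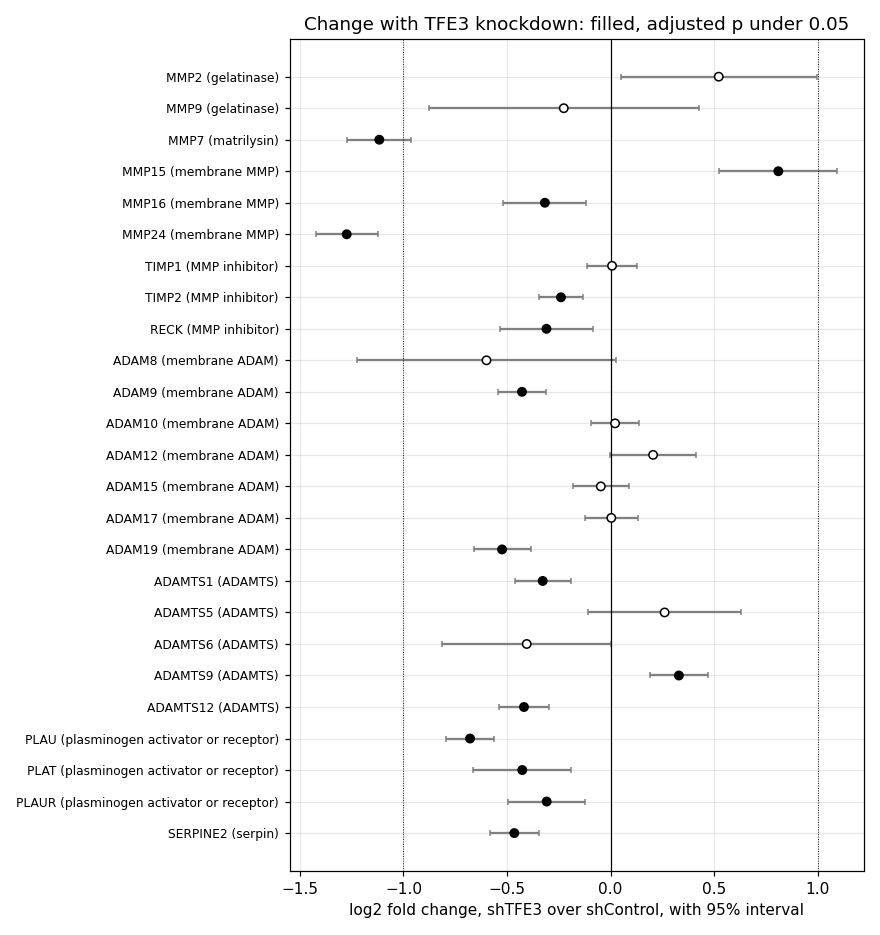
Log2 fold changes of shTFE3 over shControl (horizontal axis) for the 25 tested genes, ordered by role, with 95% intervals from edgeR as bars and dotted lines at 2-fold. Filled points passed the adjusted threshold. MMP24 at -1.27 and MMP7 at -1.12 lie farthest left, and MMP15 at 0.81 farthest right.

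A promoter of each of the 4 members that changed more than 1.5-fold is printed because these members carry the largest differences. A promoter of SERPINE2 is printed because, of the windows scanned, it held the most matches to the E-box core and its variant, sequences that TFE3 and its relatives are known to bind. Each runs 5′ to 3′ on the strand of the gene, from 250 bases before to 50 bases after a RefSeq start site in GRCh38.p14. Capitals mark matches on either strand to CACGTG (the E-box core), CATGTG (its M-box variant) or TGANTCA (the site of AP-1, the FOS and JUN factor).
MMP7 (chr11:102530698-102530997, minus strand): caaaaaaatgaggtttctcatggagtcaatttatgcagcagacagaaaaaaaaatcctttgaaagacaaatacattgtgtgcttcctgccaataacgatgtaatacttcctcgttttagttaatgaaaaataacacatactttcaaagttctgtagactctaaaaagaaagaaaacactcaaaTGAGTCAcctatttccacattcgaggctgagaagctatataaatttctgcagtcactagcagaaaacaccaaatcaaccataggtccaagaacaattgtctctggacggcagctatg
MMP24 (chr20:35226440-35226739, plus strand): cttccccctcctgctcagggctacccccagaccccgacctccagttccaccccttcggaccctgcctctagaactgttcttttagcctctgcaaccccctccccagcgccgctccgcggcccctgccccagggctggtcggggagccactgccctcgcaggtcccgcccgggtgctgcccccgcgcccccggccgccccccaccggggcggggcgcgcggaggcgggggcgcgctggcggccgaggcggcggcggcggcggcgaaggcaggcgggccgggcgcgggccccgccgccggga
PLAU (chr10:73910882-73911181, plus strand): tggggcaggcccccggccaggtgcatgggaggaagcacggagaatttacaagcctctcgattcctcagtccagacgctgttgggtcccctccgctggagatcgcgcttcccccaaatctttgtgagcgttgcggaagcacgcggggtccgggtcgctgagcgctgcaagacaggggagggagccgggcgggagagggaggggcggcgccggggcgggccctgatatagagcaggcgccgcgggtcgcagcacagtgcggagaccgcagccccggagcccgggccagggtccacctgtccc
MMP15 (chr16:58025504-58025803, plus strand): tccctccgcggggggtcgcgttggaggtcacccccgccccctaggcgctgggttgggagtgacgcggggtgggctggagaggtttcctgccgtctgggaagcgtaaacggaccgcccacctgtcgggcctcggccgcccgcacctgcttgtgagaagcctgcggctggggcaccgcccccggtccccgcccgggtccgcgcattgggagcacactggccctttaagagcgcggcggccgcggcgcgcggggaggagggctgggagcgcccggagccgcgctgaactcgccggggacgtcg
SERPINE2, downstream of its 2 listed starts (chr2:224031429-224031728, minus strand): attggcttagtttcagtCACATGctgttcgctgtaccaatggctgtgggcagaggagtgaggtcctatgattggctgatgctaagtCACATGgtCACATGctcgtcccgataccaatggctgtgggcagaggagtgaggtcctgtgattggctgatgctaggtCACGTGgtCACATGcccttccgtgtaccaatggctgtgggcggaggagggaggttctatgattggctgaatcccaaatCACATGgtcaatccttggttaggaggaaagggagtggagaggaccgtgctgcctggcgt

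Among these sequences MMP7 held an AP-1 match that begins at -67, and MMP24, MMP15 and the printed PLAU promoter held none of the 3 motifs in this window. SERPINE2 held an E-box core beginning at -87 and 5 matches to CATGTG, which lie in repeated stretches of like sequence. Its other listed promoter held no match, and neither did the other scanned promoter of PLAU, which is not printed. RefSeq promoters were on hand for 21 of the 33 members and were scanned as 23 windows. CACGTG was in 3 of the 23, against 7.26% of all 35116 promoters of the same length. The other members with it were ADAM10 at -143 and ADAMTS6 at -63, and neither passed the expression test. CATGTG was in 4 of 23, against 11.1% of all promoters: those of SERPINE2, ADAMTS6, MMP10 and SERPINB2. MMP10 and SERPINB2 had too few counts to be tested for expression. TGANTCA was in 5 of 23, against 7.71%, at -67 in MMP7 and MMP10, -84 in ADAMTS12, -186 in PLAUR and -102 in SERPINB2. No match to one motif overlapped a match to another. A match is a run of letters and does not show that a factor is bound.

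Among the secreted MMPs, only matrilysin exceeded 53 counts in any library. MMP7 (ENSG00000137673, chromosome 11, 102520508 to 102530753, minus strand, GRCh38), which cleaves proteoglycans, fibronectin and cell-surface proteins and is made by epithelial cells, had 782 and 858 counts in shTFE3, against 1583 and 1808 in shControl. This was 43.5 and 48.2 CPM in shTFE3, against 92.8 and 106 CPM in shControl. Both shTFE3 libraries lay far below both shControl libraries. MMP7 fell by 1.12 on the log2 scale (SE 0.075, edgeR adjusted p 4.38e-11), to 46.1% of the control level, and without any 1 library the value lay between -1.21 and -1.02.

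MMP7 lies at the start of a block of 9 MMP genes on chromosome 11 (102520508 to 102955734, 435 kb). None of the other 8 genes in the block exceeded 2 counts in any library. They include the collagenases MMP1 and MMP13, which cut fibrillar collagen, and the stromelysins MMP3 and MMP10, which cut many matrix proteins and activate other MMPs. MMP1 had 0 and 0 counts in shTFE3, against 1 and 1 in shControl. MMP3 had 1 and 1 counts in shTFE3, against 2 and 2 in shControl. MMP13 was at 0 in all 4 libraries, and MMP10 had at most 1 count. At this depth no difference in these genes was detectable.

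The gelatinases, which cut denatured collagen and the type IV collagen of basement membranes, were low. MMP2 had 48 and 53 counts in shTFE3, against 35 and 32 in shControl, with both shTFE3 libraries above both shControl libraries. The difference of 0.52 on the log2 scale (SE 0.23, 95% interval 0.049 to 0.99, edgeR adjusted p 0.105) did not pass the adjusted threshold. MMP9 had 17 and 26 counts in shTFE3, against 21 and 27 in shControl, and the arms overlapped.

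The membrane-anchored MMPs went both ways. MMP24 (MT5-MMP, ENSG00000125966, chromosome 20, 35226654 to 35277000, plus strand), best known in neurons, where it cleaves N-cadherin, had 573 and 555 counts in shTFE3, against 1332 and 1269 in shControl. Its level was 31.9 and 31.2 CPM in shTFE3, against 78.1 and 74.5 CPM in shControl, with replicates close together in each arm. MMP24 fell by 1.27 on the log2 scale (SE 0.072, edgeR adjusted p 1.71e-12), to 41.3% of the control level. Exons of MMP24 overlap those of MMP24OS on the opposite strand, and without the strand setting of the counting, reads of the overlap cannot be assigned. MMP24OS had 360 and 386 counts in shTFE3, against 380 and 366 in shControl, and did not pass (log2 fold change -0.069, edgeR adjusted p 0.656).

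MMP15 (MT2-MMP, ENSG00000102996, chromosome 16, 58025566 to 58046901, plus strand), which can cut collagen and activate MMP2 at the cell surface, had 180 and 197 counts in shTFE3, against 109 and 96 in shControl. Both shTFE3 libraries were above both shControl libraries. MMP15 rose by 0.81 on the log2 scale (SE 0.14, edgeR adjusted p 9.48e-05), to 175% of the control level. Without shTFE3 replicate 2 the log2 fold change was 0.73 (edgeR adjusted p 0.0508). MMP16 (MT3-MMP, chromosome 8), a relative of MMP15 that also activates MMP2, had 389 and 324 counts in shTFE3, against 432 and 415 in shControl. MMP16 fell by 0.32 on the log2 scale (SE 0.097, edgeR adjusted p 0.0187). The MMP16 call was lost without shTFE3 replicate 2 (-0.20, edgeR adjusted p 0.231), without shControl replicate 1 (-0.29, edgeR adjusted p 0.0922) and by DESeq2 (adjusted p 0.166). MMP14 (MT1-MMP), the most studied of this group for pericellular collagen cleavage, had only 18 and 7 counts in shTFE3, against 5 and 9 in shControl, and was not tested.

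**Figure D2:**
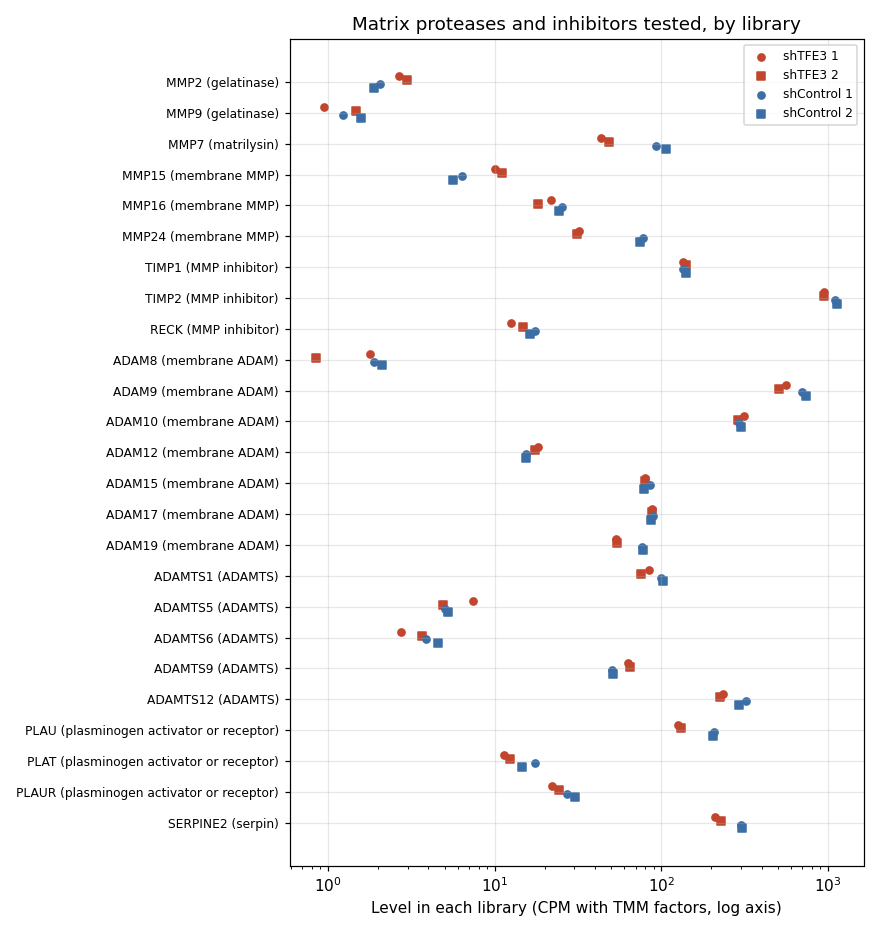
Level of each of the 25 tested genes in each library (horizontal axis, CPM with TMM factors, log scale), with shTFE3 libraries in red, shControl libraries in blue, replicate 1 as circles and replicate 2 as squares. TIMP2 has the highest CPM, at 952 and 952 CPM in shTFE3, against 1108 and 1140 CPM in shControl, and the arms are widely separated for MMP7 and MMP24.

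Of the 5 MMP inhibitors, 3 were tested, of which 2 fell and 0 rose, beside 12.9% that fell and 10.3% that rose among all genes tested. TIMP2, which inhibits MMPs and also takes part in MMP2 activation at the cell surface, had 17106 and 16937 counts in shTFE3, against 18904 and 19422 in shControl. TIMP2 fell by 0.24 on the log2 scale (SE 0.051, edgeR adjusted p 0.00107), to 84.7% of the control level, and had -0.22 (edgeR adjusted p 0.0514) without shControl replicate 2. TIMP1, a secreted inhibitor of most MMPs, had 134.9 and 141.5 CPM in shTFE3, against 135.1 and 140.0 CPM in shControl, and the arms overlapped. Its log2 fold change was 0.0067 (edgeR adjusted p 0.955), with a 95% interval of -0.11 to 0.13, and it was negative with no filter on low counts and without shTFE3 replicate 2 or shControl replicate 1.

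RECK, a membrane-anchored inhibitor of MMPs, had 226 and 263 counts in shTFE3, against 299 and 279 in shControl. RECK fell by 0.31 on the log2 scale (SE 0.11, edgeR adjusted p 0.0419), close to the threshold. RECK lost its call in 6 of 11 alternatives, among them each library left out. The edgeR adjusted p was 0.298 and 0.0856 without shTFE3 replicates 1 and 2, and 0.223 and 0.0613 without shControl replicates 1 and 2. TIMP3, a matrix-bound inhibitor of MMPs and ADAMs, had 0 counts in both shTFE3 libraries, against 2 and 0 in shControl, and TIMP4 had at most 1 count in any library.

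Levels of different genes are comparable only per length. On the scale of CPM per kilobase of annotated exon, TIMP2 was the highest of the 25 genes, at 169 in shTFE3 and 200 in shControl. In the order of the shControl levels ADAM9 followed, at 77.3 in shTFE3 and 104 in shControl, and then TIMP1, at 89.7 in shTFE3 and 89.3 in shControl. In both shTFE3 libraries TIMP1 was above ADAM9, the other way round from shControl. PLAU was next at 43.6 in shTFE3 and 69.8 in shControl, and MMP7 had 19.7 in shTFE3 and 42.8 in shControl. MMP24 had 7.15 in shTFE3 and 17.3 in shControl, while MMP15 and MMP16 stayed under 3 in every library. The exon length is the union of all annotated exons, which lowers the value of any gene whose annotated exons are not all used. Exon use was not measured.

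Summed on this per-kilobase scale, the 11 MMP genes had 31.2 and 33.2 in shTFE3, against 62.3 and 67.1 in shControl. MMP7 and MMP24 made up most of it: MMP7 held 60.0% and 62.5% of the sum in shTFE3, against 64.1% and 68.1% in shControl. The 4 TIMP genes had 257 and 261 in shTFE3, against 284 and 293 in shControl. The TIMP sum divided by the MMP sum was 8.21 and 7.85 in shTFE3, against 4.57 and 4.37 in shControl, so the arms were well apart. These sums were formed after the values were seen and are a description with no test, and they compare mRNA, not protein or activity.

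**Figure D3:**
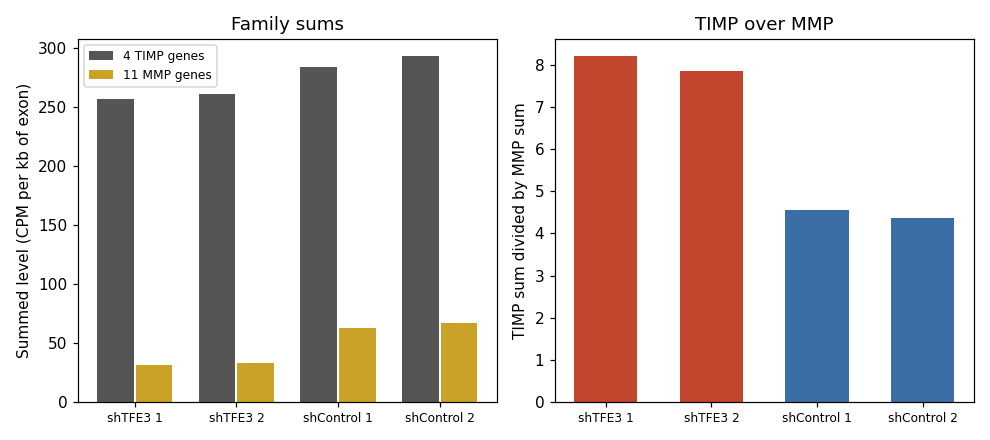
Left, summed level of the 4 TIMP genes (grey) and the 11 MMP genes (yellow) in each library, in CPM per kilobase of exon; right, the ratio of the sums, shTFE3 in red and shControl in blue. The ratio is 8.21 and 7.85 in shTFE3 libraries, against 4.57 and 4.37 in shControl libraries.

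Of the 7 membrane ADAMs, 2 fell, 0 rose and 5 did not pass, where 12.9% of all genes tested fell and 10.3% rose. ADAM9 (chromosome 8, 38996869 to 39105144, plus strand), a widely expressed sheddase, had 10015 and 9095 counts in shTFE3, against 11938 and 12567 in shControl. ADAM9 fell by 0.43 on the log2 scale (SE 0.056, edgeR adjusted p 2.62e-06), to 74.3% of the control level. ADAM19 (chromosome 5, 157395534 to 157575775, minus strand), known in the mouse for heart valve development and for cutting neuregulins, had 954 and 965 counts in shTFE3, against 1306 and 1325 in shControl. ADAM19 fell by 0.52 on the log2 scale (SE 0.067, edgeR adjusted p 1.8e-06). The shTFE3 libraries of both genes lay below the shControl libraries. Exons of ADAM19 overlap those of CYFIP2 on the opposite strand. The spans of these genes share only bases 157395534 to 157395595, and ADAM19 has 7704 bases of annotated exon. CYFIP2 had 777 and 758 counts in shTFE3, against 1162 and 1075 in shControl, and fell too (log2 fold change -0.61, edgeR adjusted p 5.36e-07). Without the strand setting, reads of this short overlap cannot be told apart.

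The other well-expressed sheddases did not pass the test. ADAM10, which releases the Notch extracellular domain and cuts E-cadherin, had 314 and 289 CPM in shTFE3, against 293 and 301 CPM in shControl. Its log2 fold change was 0.021, with a 95% interval of -0.095 to 0.14 and a negative sign without shTFE3 replicate 1 or without shControl replicate 1. ADAM17, which releases TNF and ligands of the EGF receptor, had 88.0 and 87.7 CPM in shTFE3, against 88.6 and 86.7 CPM in shControl. Its log2 fold change was 0.0031, with a 95% interval of -0.13 to 0.13, and negative with no filter on low counts and without shControl replicate 2. Its exons overlap those of IAH1 on the opposite strand, which had 501 and 521 counts in shTFE3, against 634 and 618 in shControl. IAH1 fell by 0.36 on the log2 scale (edgeR adjusted p 0.00153, and 0.0691 and 0.0543 without shTFE3 replicates 1 and 2), and reads of the overlap cannot be told apart here either. ADAM15, a sheddase that also binds integrins, had a log2 fold change of -0.047 and an interval of -0.18 to 0.087, and 0.010 without shControl replicate 1.

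ADAM12, known in the mouse for its part in myoblast fusion, had 325 and 311 counts in shTFE3, against 262 and 264 in shControl. The arms did not overlap, but the log2 difference of 0.20 (SE 0.10, edgeR adjusted p 0.15) did not pass. ADAM8, mainly an enzyme of leukocytes, had few counts, with 32 and 15 counts in shTFE3, against 32 and 36 in shControl.

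The secreted ADAMTS proteases were split. ADAMTS12, which has been described as cutting cartilage oligomeric matrix protein, had the highest level of the 5 per kilobase, with 4197 and 4030 counts in shTFE3, against 5500 and 4982 in shControl. ADAMTS12 fell by 0.42 on the log2 scale (SE 0.058, edgeR adjusted p 6.26e-06). ADAMTS1, which cuts versican and aggrecan, had 1514 and 1350 counts in shTFE3, against 1687 and 1740 in shControl. ADAMTS1 fell by 0.33 on the log2 scale (SE 0.066, edgeR adjusted p 0.000555), and had -0.26 (edgeR adjusted p 0.0768) without shTFE3 replicate 2. ADAMTS9, also a versican-cutting enzyme, had 1135 and 1149 counts in shTFE3, against 864 and 869 in shControl. ADAMTS9 rose by 0.33 on the log2 scale (SE 0.069, edgeR adjusted p 0.000828), and had 0.31 (edgeR adjusted p 0.0592) without shTFE3 replicate 2.

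ADAMTS1 and ADAMTS5 are neighbours on chromosome 21, separated by 72.5 kb. ADAMTS5, an aggrecan-cutting enzyme of cartilage, had 133 and 87 counts in shTFE3, against 86 and 89 in shControl. Only shTFE3 replicate 1 stood above the control libraries, and the log2 fold change of 0.26 (95% interval -0.11 to 0.63) did not pass. ADAMTS6 had 49 and 65 counts in shTFE3, against 66 and 78 in shControl, and did not pass (log2 fold change -0.41, edgeR adjusted p 0.149).

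All 3 genes that start or anchor plasminogen activation fell, where 12.9% of all genes tested fell. PLAU, the urokinase gene (ENSG00000122861, chromosome 10, 73909177 to 73917497, plus strand), had 2278 and 2322 counts in shTFE3, against 3555 and 3465 in shControl. Its level was 127 and 131 CPM in shTFE3, against 208 and 203 CPM in shControl, a gap far wider than that between replicates. PLAU fell by 0.68 on the log2 scale (SE 0.057, edgeR adjusted p 2.27e-09), to 62.5% of the control level. PLAT had 205 and 221 counts in shTFE3, against 296 and 250 in shControl (log2 fold change -0.43, SE 0.11, edgeR adjusted p 0.00761). PLAUR, the receptor that holds urokinase at the cell surface, had 395 and 433 counts in shTFE3, against 464 and 514 in shControl (-0.31, SE 0.091, edgeR adjusted p 0.0145).

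The calls of PLAT and PLAUR were less stable than that of PLAU. By DESeq2 the adjusted p was 0.12 for PLAT and 0.139 for PLAUR. For PLAT the edgeR adjusted p was 0.172 without shTFE3 replicate 1, 0.115 without shTFE3 replicate 2 and 0.168 without shControl replicate 1. For PLAUR it was 0.21 without shTFE3 replicate 1, 0.098 without shTFE3 replicate 2 and 0.183 without shControl replicate 2.

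SERPINE2 (protease nexin 1, ENSG00000135919, chromosome 2, 223975112 to 224039319, minus strand), an inhibitor of thrombin, urokinase and plasmin, had 3788 and 4071 counts in shTFE3, against 5163 and 5181 in shControl. SERPINE2 fell by 0.47 on the log2 scale (SE 0.057, edgeR adjusted p 9.92e-07), to 72.5% of the control level. SERPINB2 (PAI-2), another urokinase inhibitor, had 0 counts in all 4 libraries.

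Other genes of the plasmin and thrombin systems were examined as a list of 19, of which 17 were tested, 9 fell, 2 rose and 6 did not pass. Among all genes tested 12.9% fell and 10.3% rose. The median log2 fold change was -0.17. With any library left out, fewer of the 17 passed, as did fewer of all genes. Plasminogen itself (PLG), made mainly by the liver, had 0 counts in all 4 libraries. S100A10, a plasminogen receptor subunit, fell by 0.60 on the log2 scale. The thrombin receptors F2R and F2RL2 fell by 0.92 and 0.84. SERPINF2, the gene of the plasmin inhibitor alpha-2-antiplasmin, had 17 and 21 counts in shTFE3, against 65 and 42 in shControl. Its log2 fold change was -1.56 (edgeR adjusted p 0.000177), with an adjusted p of 0.0889 and 0.077 without shTFE3 replicates 1 and 2. TFPI2, a matrix-bound inhibitor of plasmin and other serine proteases, rose by 0.57, with 4726 and 4589 counts in shTFE3, against 2753 and 3238 in shControl.

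Further metalloproteinases and ADAMTS-like genes were examined as a list of 53, which is not all that remain. Of these, 25 were tested, 7 fell, 3 rose and 15 did not pass, with a median log2 fold change of 0.0072. Among all genes tested 12.9% fell and 10.3% rose. With any library left out, fewer of this list passed, and fewer of all genes passed too. ADAM22, a catalytically inactive ADAM known as a receptor in the brain, had 217 and 197 counts in shTFE3, against 403 and 469 in shControl, and fell by 1.14 on the log2 scale. ADAMTS3, which trims procollagen, fell by 0.52. Among ADAMTS-like proteins, which lack the protease domain, ADAMTSL3 fell by 0.97 and ADAMTSL1 rose by 0.89, with 1053 and 1140 counts in shTFE3, against 575 and 550 in shControl. Papilin (PAPLN) fell by 0.61 on the log2 scale. ADAMTS15 rose by 0.40, but its edgeR adjusted p was 0.0735 and 0.0533 without shTFE3 replicates 1 and 2.

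A list of 21 held genes that escort, mature or follow the ADAM sheddases, and some that do not, such as the protease BACE2. All 21 were tested, and 7 fell, 0 rose and 14 did not pass, with a median of -0.067. Over all genes tested, 12.9% fell and 10.3% rose. Fewer of the 21 passed with any library left out, and so did fewer of all genes. TSPAN10 (log2 fold change -0.95) and TSPAN5 (-0.39) belong to the tetraspanins that carry ADAM10 to the cell surface. RHBDF2 (-0.19), also called iRhom2, does the same for ADAM17. APH1A (-0.29), a subunit of gamma-secretase, and the protease BACE2 (-0.49) also fell. RHBDF2 lost its call with any library left out, with an edgeR adjusted p of 0.0518 to 0.174. TSPAN5 lost its call in 3 such fits (0.0961 without shTFE3 replicate 1, 0.0823 without shTFE3 replicate 2, 0.0622 without shControl replicate 2) and APH1A in 1 (0.0603 without shTFE3 replicate 1).

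Of 33 other serine proteases, inhibitors and matrix enzymes, 14 were tested, 7 fell, 2 rose and 5 did not pass, with a median of -0.30. The shares over all genes tested were 12.9% fallen and 10.3% risen. PRSS23, a secreted serine protease, had 793 and 908 counts in shTFE3, against 1961 and 2098 in shControl, and fell by 1.32 on the log2 scale. HTRA1, a secreted serine protease that cuts matrix proteins, fell by 0.60, SERPINA1 (alpha-1-antitrypsin) by 0.74, and LOXL2, which crosslinks collagen, by 0.56. The elastase inhibitors SLPI and PI3 rose. SLPI had 685 and 605 counts in shTFE3, against 285 and 318 in shControl (log2 fold change 1.03, edgeR adjusted p 7.64e-09). PI3 had 142 and 125 counts in shTFE3, against 38 and 39 in shControl (1.72, edgeR adjusted p 1.03e-07).

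**Figure D4:**
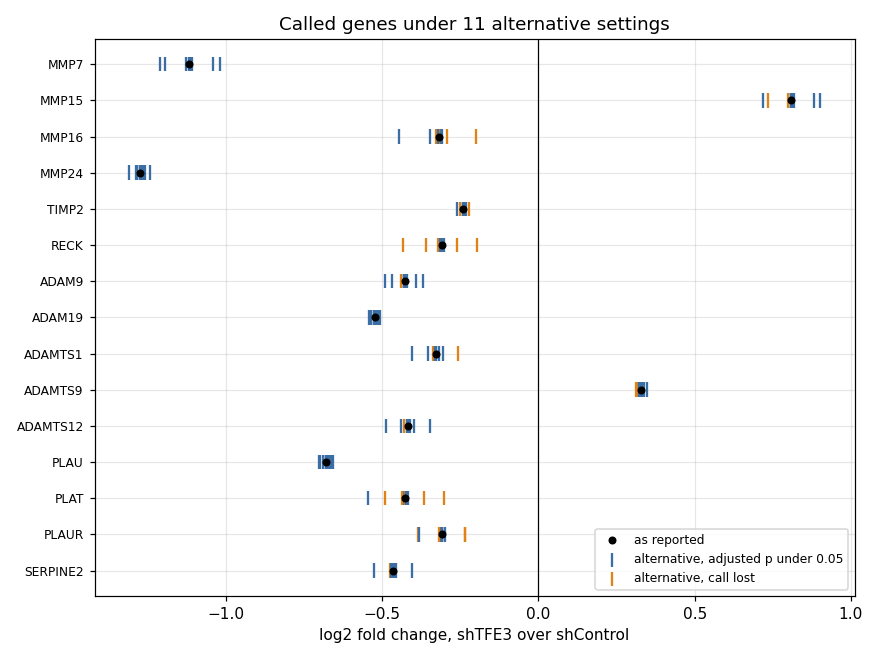
Log2 fold changes (horizontal axis) of the 15 called members as reported (black points) and under 11 alternative settings (ticks, blue where the adjusted p stayed under 0.05 and orange where the call was lost). MMP7, MMP24, ADAM19 and PLAU have blue ticks throughout, while RECK has orange ticks in 6 of 11.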

How the data were processed

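Sample titles gave the groups. The authors deposited raw read counts per Ensembl gene, made with Trim Galore, STAR and featureCounts on hg38, per the submitters' processing notes; no version is given in the sources used here, and neither are the annotation, the strand setting or how multi-mapping reads were handled. The authors also deposited a DESeq2 table of selected genes, per the file headers, with mean normalized signal, log2 fold changes with their errors, a test score and p-values; its numbers are printed only as theirs. It holds genes with an absolute log2 fold change of at least 0.585.

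Symbols were matched for 61518 of 61533 identifiers, and coordinates and exon lengths come from GENCODE release 29 on GRCh38. The counts were fitted with edgeR 4.0.16 in R 4.3.3 (TMM factors, filterByExpr by group, arm as the only term, quasi-likelihood test, Benjamini-Hochberg adjustment at 0.05). The filter left 15950 genes with 99.8% of counts. Replicates varied by 4.16% (biological coefficient of variation), on 2 residual plus 22.4 prior degrees of freedom. A chi-square of replicate counts per degree of freedom was 3.30 in shTFE3 and 2.00 in shControl, above sampling noise, so no library was treated as a copy of another; separate infections are not shown by this. The standard error is the absolute log2 fold change divided by the root of the test statistic. The floor of 3 counts covers counting error only. The 95% intervals are built from the standard error above, and so rest on the spread between libraries in the edgeR fit. The procedure was tested on simulated data. Alternatives were other normalizations and filters, DESeq2 1.42.0, limma-voom 3.58.1, a replicate block and each library left out.

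The members and lists were chosen with earlier results of these data known. From each of the 4 further lists the 6 tested genes with the smallest p were named at most, besides TFE3 and SLC36A1, and some of those genes are not reported here; PLG, MMP24OS, CYFIP2 and IAH1 were named after their values were seen. SLC36A1 fell too (log2 fold change -0.64, edgeR adjusted p 1.8e-05).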

Additional observations from a re-analysis of the deposited data

How the results depend on the processing

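Of the 15 called members, 4 kept their calls in all 11 alternatives, and no call reversed. With no filter on low counts the counts were 0 members up and 4 down, 104 and 280 of all genes up and down, 4 genes of the plasmin list, 3 further metalloproteinases, 1 sheddase regulator and 5 further serine proteases and inhibitors. DESeq2 gave 752 and 1207 of all genes, 5 metalloproteinases and 4 sheddase regulators. It called 2 members up and 9 down. With each library left out the ranges were 0 to 2 members up, 8 to 10 down, 367 to 1008 and 676 to 1507 of all genes up and down, 7 to 9 plasmin genes, 5 to 7 metalloproteinases, 2 to 4 sheddase regulators, and 7 to 9 serine proteases and inhibitors.

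The sign turned only in members that had not passed: MMP9 (0.055) and ADAMTS5 (-0.068) without shTFE3 replicate 1, ADAM15 (0.010) without shControl replicate 1, ADAM10 (-0.037 without shTFE3 replicate 1, -0.0015 without shControl replicate 1), TIMP1 (-0.0036 with no filter, -0.030 without shTFE3 replicate 2, -0.021 without shControl replicate 1) and ADAM17 (-0.0072 with no filter, -0.014 without shControl replicate 2). Over the 4 fits with a library left out these genes ranged from -0.57 to 0.055 (MMP9), -0.068 to 0.53 (ADAMTS5), -0.11 to 0.010 (ADAM15), -0.037 to 0.077 (ADAM10), -0.030 to 0.043 (TIMP1) and -0.014 to 0.017 (ADAM17). The cause was not tested. The replicate block gave 2 members up and 13 down, so it changed no call among them. Deviations of same-numbered libraries from their arm means had a correlation of -0.074. With 2 libraries an arm, this value cannot show whether equal numbers mark a shared infection. The 8 members with few counts were removed by the filter and not tested, so no difference in them was assessed.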
